A study of Mus musculus with 8 samples.

Results

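*Hcar1* and 8 other genes of lactate handling were followed in RNA sequencing libraries of left ventricles (LVs) of 8 mice. The 9 genes were taken by name from a table of counts on 46040 genes. *Hcar1* was chosen by its log2 fold change between the genotypes in these same libraries, so its difference is given as a description with no test. The other 8 genes were included for their roles: the receptor gene *Hcar2*, the lactate dehydrogenase genes *Ldha*, *Ldhb* and *Ldhd*, the transporter genes *Slc16a1*, *Slc16a3* and *Slc16a7*, and *Bsg*. Of the 9 genes, 8 were tested, having a CPM (the count of a gene scaled to the total of its library) that reached 1 in 2 or more libraries. *Hcar1* passed this filter through all 4 libraries of the group in which it was high and 1 library of the other group, and *Hcar2* did not pass it.

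All mice were males of the C57BL/6 strain, 5 to 7 months of age, and received angiotensin II (angII, 0.1 mg/kg/h) from a subcutaneous pump for 14 days to raise the pressure load on the heart. VEGFR-1 TK-/- mice lack the tyrosine kinase domain of VEGFR-1, encoded by *Flt1*, in every cell from development on, and their littermates served as controls. No library came from a heart without angII, so a response to angII itself cannot be seen. The labels contradict each other on genotype, since the title of each sample carries the genotype opposite to its tag and its library name. The library names set the groups, which are called control-tagged (n = 4) and TK-/- tagged (n = 4), and if the titles are the correct ones all signs turn around. The animal behind each library is not stated apart from its replicate number, so p-values measure the spread between these libraries. The library names also refer to cardiomyocytes, where the sample source is LV tissue. Markers of cardiomyocytes summed to between 80189 and 126078 normalized CPM per library, markers of endothelial cells to between 1343 and 1841 and markers of fibroblasts to between 677 and 1971. Of 6 atrial markers, *Sln* and *Bmp10* had 5 and 3 reads over all libraries, *Myl7*, *Myl4* and *Dkk3* 76, 409 and 992, and *Nppa*, which stressed ventricles also express, 106818. Between 11449137 and 16239670 counts per library fell on genes. *Flt1* was at 69.3 ± 11.3 (SD, n = 4) and 158 ± 13.2 (SD, n = 4) normalized CPM in the control-tagged and TK-/- tagged libraries, and counts per gene cannot reveal whether the domain is missing.

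Lactate is made from pyruvate by lactate dehydrogenase, a tetramer of A and B subunits. The A subunit prevails in glycolytic tissue and the B subunit in the heart, which takes up lactate from the blood and oxidizes it. Lactate crosses the plasma membrane with a proton through monocarboxylate transporters (MCTs), some of which need the chaperone basigin at the cell surface. Lactate is also a signal, since it activates the Gi-coupled receptor HCAR1, which in adipocytes lowers cyclic AMP and restrains lipolysis. Normalized CPM uses library totals adjusted by the TMM method, and the FDR is the p-value adjusted over all genes tested. Log2 fold changes are positive where the TK-/- tagged libraries were higher.

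*Hcar1* (ENSMUSG00000049241), the lactate receptor gene, is a single exon of 3285 bases (GRCm38 chromosome 5, 123876736 to 123880020, minus strand). The reads of control-tagged replicates 1 to 4 numbered 21, 43, 43 and 17, which are 1.57, 3.12, 2.89 and 1.36 normalized CPM. Those of TK-/- tagged replicates 1 to 4 numbered 4, 16, 2 and 3, which are 0.325, 1.42, 0.158 and 0.239 normalized CPM. The control-tagged libraries were the higher ones, and the groups overlapped in 1 library, TK-/- tagged replicate 2, which stood just above control-tagged replicate 4. The group means were 2.24 ± 0.899 (SD, n = 4) and 0.536 ± 0.594 (SD, n = 4) normalized CPM, a log2 fold change of −2.10 (SE 0.55), whose sign holds for the library names and is the opposite under the sample titles. Of the 25 reads in the TK-/- tagged group, 16 came from replicate 2, against 124 reads in the control-tagged group. Leaving this library out gave a log2 fold change of −3.18. Such counts carry a wide counting error: the exact Poisson 95% interval of the 16 reads ran from 0.812 to 2.31 normalized CPM, that of the 17 reads of control-tagged replicate 4 from 0.792 to 2.18, and those of the 3 other TK-/- tagged libraries ended at 0.571 to 0.832. These intervals cover counting error only.

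**Figure D1:**
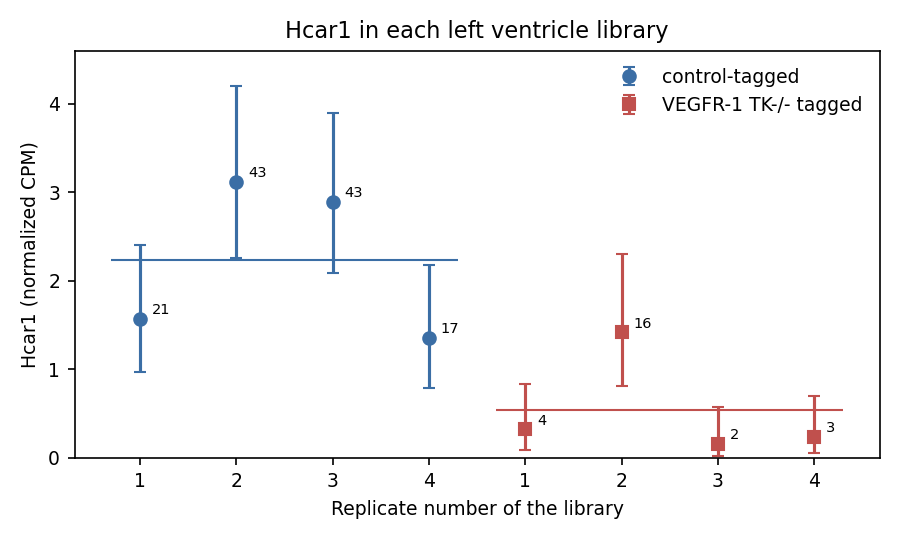
Normalized CPM of Hcar1 (y axis) in each library (x axis, replicate number), control-tagged as circles and TK-/- tagged as squares. Bars are exact Poisson 95% intervals of the counts, horizontal lines are group means and the small numbers are reads. TK-/- tagged replicate 2, with 16 reads, lies among the control-tagged libraries, and the other 3 of its group have 2 to 4 reads.

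*Hcar2* (ENSMUSG00000045502), the receptor gene for the ketone body beta-hydroxybutyrate and niacin, lies 11.2 kb from *Hcar1* on the same strand, from 123863570 to 123865499. It had 2 reads in control-tagged replicate 2, 1 read in each of TK-/- tagged replicates 3 and 4, and 0 reads in the other 5 libraries. At this depth a count of 0 allows up to 3 reads, or 0.202 to 0.266 normalized CPM, so no difference between the groups was detectable. *Hcar1* and *Hcar2* thus had 149 and 4 reads over the same 8 libraries. Of the other annotated genes within 100 kb, listed by position after their values were seen, *Denr*, *Ccdc62* and *Hip1r* were tested, with log2 fold changes of 0.17 (SE 0.09), 0.34 (SE 0.28) and −0.14 (SE 0.11) and FDRs of 0.621 to 0.742 by edgeR's quasi-likelihood test, and the groups overlapped for each. *Hcar1* lies 23.68 Mb from *Flt1*, on the same chromosome.

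*Hcar1* is known as an adipocyte gene, and of 23 adipocyte markers followed, 13 did not pass the filter. The adipokine genes *Lep* and *Retn* and the lipid droplet gene *Plin1* had 0 reads in all 8 libraries, and *Adipoq*, the gene of adiponectin, had 4 reads in all. The brown fat gene *Ucp1* had 2 reads, and *Elovl3* and *Otop1* had 0. Of these 13, the 12 other than *Cfd* together had 27 reads over the 8 libraries, and their counts were low by the filter itself. *Cfd*, the gene of adipsin, had 20 reads in control-tagged replicate 3, 8 in control-tagged replicate 4 and 0 in the other 6 libraries. Control-tagged replicates 3 and 4 had 43 and 17 *Hcar1* reads. Control-tagged replicates 1 and 2 and TK-/- tagged replicate 2, with 0 *Cfd* reads, had 21, 43 and 16 *Hcar1* reads. The part of fat tissue in the *Hcar1* reads was not tested. The 10 markers that passed are also read in heart muscle or its capillaries. Of the 5 on the white fat list, *Fabp4*, *Pparg*, *Lipe*, *Dgat2* and *Cd36*, the log2 fold changes ran from −0.05 to 0.25 with no unadjusted p under 0.05. Of the 5 on the brown fat list, *Dio2*, which activates thyroid hormone, had a log2 fold change of −0.93 (SE 0.40, FDR = 0.534) and *Ppargc1a*, the gene of the mitochondrial coactivator PGC-1alpha, 0.55 (SE 0.15, FDR = 0.442), while *Prdm16*, *Cidea* and *Cox7a1* lay between −0.19 and 0.28. The summed level of the white fat list was 2538 to 3215 normalized CPM in the control-tagged and 2859 to 3563 in the TK-/- tagged libraries. That of the brown fat list was 513 to 664 and 699 to 866. Most of this sum came from *Cox7a1*, with means of 448 and 543 normalized CPM in the control-tagged and TK-/- tagged groups, and *Ppargc1a*, with 94.7 and 139.

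None of the markers of cell types other than adipocytes was called by edgeR's quasi-likelihood test, and the sum of each of these lists overlapped between the groups. The 8 endothelial markers summed to 1488 to 1841 normalized CPM in the control-tagged and 1343 to 1493 in the TK-/- tagged libraries, and 4 of the 8 had an unadjusted p under 0.05 with a lower level, as 5.64% of all genes tested had. The 8 markers of pericytes and smooth muscle summed to 1378 to 1963 and 992 to 1506 (3 of 8 lower), and the 8 macrophage markers to 497 to 632 and 344 to 507 (1 of 8 lower). TK-/- tagged replicate 2, the library of its group with most *Hcar1*, had the lowest endothelial sum (1343) and the lowest pericyte and smooth muscle sum (992) of all 8 libraries. TK-/- tagged replicate 3, with the least *Hcar1*, had the lowest fibroblast (677) and macrophage (344) sums. Control-tagged replicate 2, with the most *Hcar1*, had the highest endothelial (1841), fibroblast (1971) and macrophage (632) sums. The red blood cell markers summed to 310, 768, 755 and 418 normalized CPM in control-tagged replicates 1 to 4. In TK-/- tagged replicates 1 to 4 they summed to 360, 601, 427 and 390. Of the 6 red blood cell markers 1 was lower at an unadjusted p under 0.05. Of the fibroblast, neutrophil, lymphocyte, skeletal muscle and atrial markers 0 were lower or higher at this level. Of the 10 cardiomyocyte markers, 2 had a higher level at an unadjusted p under 0.05, and their median log2 fold change was 0.18. In LV tissue, fewer cells of a type and less RNA per cell cannot be told apart, and the part of cell composition in the values of *Hcar1* was not tested.

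Among the genes tested, 14 of 13541 had a Pearson r of at least 0.9 with *Hcar1* over the 8 libraries, on log2 normalized CPM. These libraries share depth, group and tissue composition, so r is a description. The highest were *Chst7* (r = 0.976), a carbohydrate sulfotransferase gene, and *Zfp668* (r = 0.963), followed by *Rbsn*, *Ccnd3*, *Slc35c1*, *Zcwpw1*, *Mlph*, *Alg14*, *Gm16181* and *Tmem132a* with r from 0.951 down to 0.919. The spread of these genes was small beside that of *Hcar1*, whose log2 level spanned 3.39. *Rbsn*, of endosomal traffic, spanned 0.16 and the cyclin gene *Ccnd3* 0.23, while *Chst7* spanned 1.41, with 6.411 and 3.602 normalized CPM as the group means. After the group means were subtracted, *Ccnd3* (r = 0.989), *Armc9*, *Ovca2*, *Cep19* and *Zfp668* (r = 0.957) were highest. The lowest r was that of *Ppargc1a* (r = −0.928), followed by *Ercc5*, *Ankle2*, *Dnajc4* and *Btf3l4*. *Ppargc1a* was at 112, 73.1, 81.8 and 112 normalized CPM in control-tagged replicates 1 to 4 and at 131, 118, 150 and 156 in TK-/- tagged replicates 1 to 4. Its groups did not overlap, as those of 4.98% of the genes tested, 2.46% with the TK-/- tagged libraries higher and 2.53% with them lower. The 7 other members tested had r between −0.418 for *Ldhd* and 0.367 for *Ldha*. After the group means were subtracted, *Slc16a1* had r = −0.873. In both groups replicate 2 had the most *Hcar1* and the least *Slc16a1*. How many genes reach such an r was not counted.

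The other genes differed in level by orders of magnitude. *Ldhb*, *Bsg* and *Ldha* led, *Slc16a1* and *Ldhd* followed, and the receptor genes and the genes of MCT2 and MCT4 were at the bottom. Per kb of exon, in medians over the 8 libraries, *Ldhb* was at 1214 normalized CPM, *Bsg* at 952, *Ldha* at 278, *Slc16a1* at 64.1, *Ldhd* at 9.70, *Slc16a3* at 0.741, *Hcar1* at 0.423, *Slc16a7* at 0.195 and *Hcar2* at 0. The ranges over the libraries overlapped between *Ldhb* and *Bsg*, between *Slc16a3* and *Hcar1* and between *Hcar1* and *Slc16a7*, and between no other neighbours in this order. By level per kb, *Ldhb* ranked 28 and *Bsg* 40 of 13513 genes with a length, and *Hcar1* ranked 12326. With the longest transcript as the length the order of the 9 genes was the same.

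**Figure D2:**
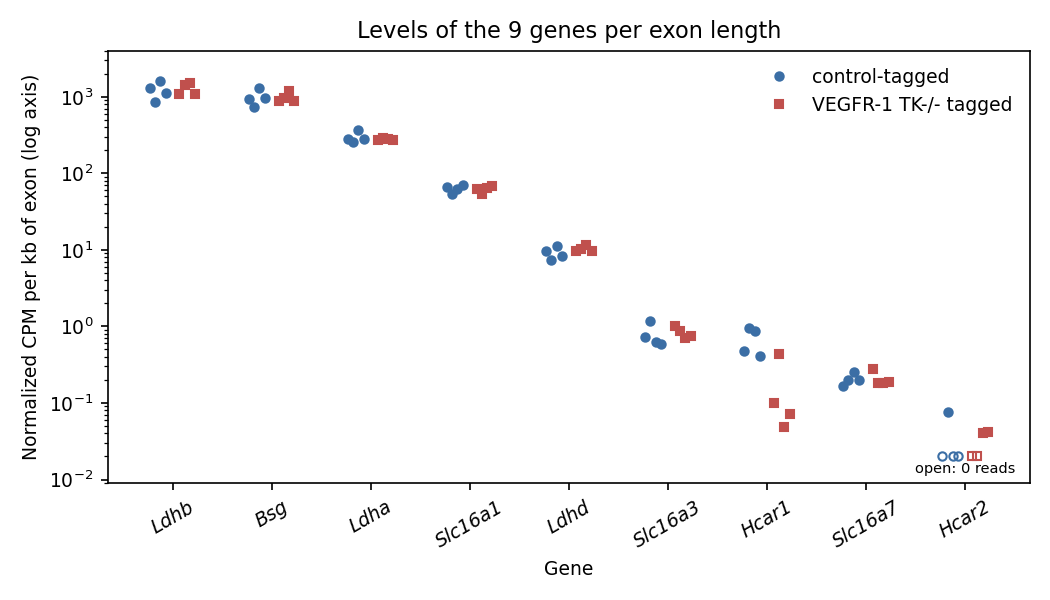
Normalized CPM per kb of exon (y axis, log scale) of the 9 genes (x axis, highest median first) in each control-tagged (circles) and TK-/- tagged (squares) library. Open symbols are libraries with 0 reads. Hcar1 is the gene with the widest spread among those with reads in every library, from 0.0481 to 0.950.

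By edgeR's quasi-likelihood test, 0 of the 7 members tested other than *Hcar1* passed both thresholds (FDR below 0.1, change of 1.5-fold or more either way), and 0 had an unadjusted p under 0.05. The likelihood ratio test and DESeq2 also called 0 of the 7. Over all genes tested, 0.00738% were called and 8.96% had an unadjusted p under 0.05. The 95% intervals of the log2 fold changes lay within this 1.5-fold limit for 6 of the 7 genes, and that of *Slc16a3* reached 0.61. The groups overlapped for all 9 genes.

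**Figure D3:**
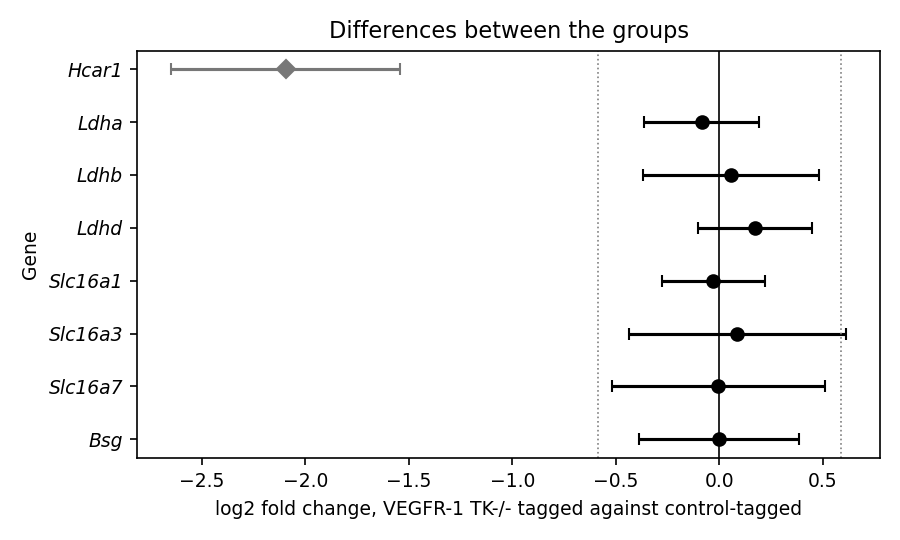
Log2 fold change of TK-/- tagged against control-tagged libraries (x axis) of the 8 genes that passed the filter (y axis). Bars are 95% intervals, except for Hcar1 (diamond), which has its SE and no test, and dotted lines mark a 1.5-fold change. Hcar1 lies at −2.10 and the other 7 genes between −0.09 and 0.17.

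*Ldhb* (ENSMUSG00000030246, chromosome 6, 142490249 to 142507957), of the B subunit, was at 2031, 1344, 2539 and 1781 normalized CPM in control-tagged replicates 1 to 4. In TK-/- tagged replicates 1 to 4 it was at 1714, 2237, 2347 and 1710. The lowest and the highest library were both control-tagged, so that the whole range of one group lay inside that of the other. The log2 fold change was 0.06 (SE 0.19, FDR = 0.951 by edgeR's quasi-likelihood test), with a 95% interval from −0.37 to 0.48.

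*Ldha* (ENSMUSG00000063229, chromosome 7, 46841475 to 46855627), of the A subunit, was at 920, 861, 1214 and 920 normalized CPM in the control-tagged libraries. It was at 904, 959.5, 927 and 899 in the TK-/- tagged libraries. Control-tagged replicate 3 stood apart, and the other 7 libraries lay between 861 and 959.5. The log2 fold change was −0.09 (SE 0.13, FDR = 0.870 by edgeR's quasi-likelihood test), and without control-tagged replicate 3 it was 0.03. Reads shared with pseudogene copies of *Ldha* were not examined.

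Within each library, *Ldha* made up 17.7%, 23.3%, 18.5% and 19.7% of the summed level of *Ldha* and *Ldhb* per kb in control-tagged replicates 1 to 4. The share was 20.01%, 16.9%, 15.8% and 19.97% in TK-/- tagged replicates 1 to 4. The B subunit gene prevailed in every library, and the groups overlapped, with means of 19.8% ± 2.48 and 18.2% ± 2.16 (SD, n = 4 each). The share depends on the length used: with the longest transcript of each gene its mean over all libraries was 26.2%, against 19.0% with the union of exons.

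**Figure D4:**
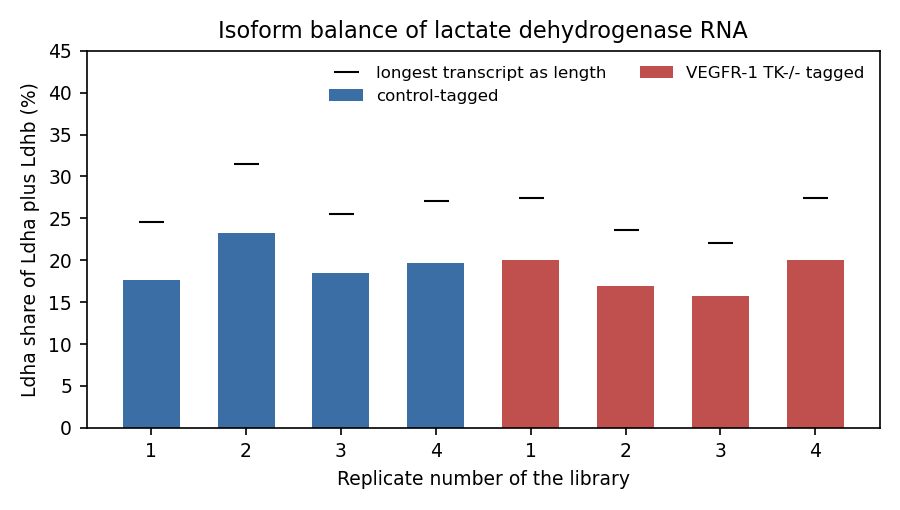
Ldha as a percent of Ldha plus Ldhb, each per kb of exon (y axis), in every library (x axis, replicate number), control-tagged in blue and TK-/- tagged in red. Bars use the union of exons and black dashes the longest transcript. The bars lie between 15.8% and 23.3%, with the highest in control-tagged replicate 2.

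*Ldhd* (ENSMUSG00000031958, chromosome 8, 111623785 to 111630374), the mitochondrial enzyme of D-lactate, was at 51.4, 39.9, 59.7 and 44.9 normalized CPM in the control-tagged libraries. It was at 51.8, 55.2, 62.2 and 51.6 in the TK-/- tagged libraries. The 2 lowest libraries were control-tagged and the other 6 were mixed. The log2 fold change was 0.17 (SE 0.13, FDR = 0.717 by edgeR's quasi-likelihood test), and its 95% interval ran from −0.10 to 0.44. *Ldhd* shares 2246 exon bases with *Znrf1* on the opposite strand, which had a log2 fold change of −0.02. Without strand, reads of these genes cannot be told apart, and the strand setting of the counting is not given in the sources used here.

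*Slc16a1* (ENSMUSG00000032902, chromosome 3, 104638668 to 104658462), the gene of MCT1, was the main MCT gene. It was at 293, 242, 280 and 316 normalized CPM in control-tagged replicates 1 to 4 and at 280, 237, 288 and 302 in TK-/- tagged replicates 1 to 4. The groups covered nearly the same range, and replicate 2 was the lowest library of each. The log2 fold change was −0.03 (SE 0.11, FDR = 0.956 by edgeR's quasi-likelihood test), with a 95% interval from −0.28 to 0.22, the narrowest of the members. Per kb, *Slc16a1* held 97.5% to 98.9% of the summed level of *Slc16a1*, *Slc16a3* and *Slc16a7* in the 8 libraries.

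*Slc16a3* (ENSMUSG00000025161, chromosome 11, 120948480 to 120960868) encodes MCT4, known as the lactate exporter of glycolytic cells. It had 39 to 86 reads per library, which are 3.89, 6.24, 3.36 and 3.12 normalized CPM in the control-tagged libraries. In the TK-/- tagged libraries it was at 5.36, 4.62, 3.71 and 3.99. Control-tagged replicate 2 was the highest of all, and without it the log2 fold change rose from 0.09 (SE 0.24) to 0.35, with an FDR = 0.671 by edgeR's quasi-likelihood test.

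*Slc16a7* (ENSMUSG00000020102, chromosome 10, 125219270 to 125389465), the gene of the high-affinity transporter MCT2, had 24 to 45 reads per library. It was at 1.95, 2.40, 3.03 and 2.40 normalized CPM in the control-tagged and at 3.25, 2.13, 2.13 and 2.23 in the TK-/- tagged libraries. The highest library was TK-/- tagged replicate 1, and the other 3 of its group lay inside the control-tagged range. The log2 fold change was −0.01 (SE 0.24), and the 95% interval from −0.52 to 0.51 is wide at this depth. *Slc16a7* shares 179 exon bases with *Gm47862* on the opposite strand, where reads cannot be told apart without strand.

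*Bsg* (ENSMUSG00000023175, chromosome 10, 79704491 to 79711969), the gene of the MCT chaperone basigin, was at 1721, 1324, 2335 and 1735 normalized CPM in the control-tagged libraries. It was at 1617, 1734, 2157 and 1590 in the TK-/- tagged libraries. The group means, 1779 ± 417 and 1774 ± 262 (SD, n = 4 each), were nearly equal, with a log2 fold change of −0.00 (SE 0.18, 95% interval −0.39 to 0.38). *Bsg*, *Ldha*, *Ldhb* and *Ldhd* had their lowest value in the same library, control-tagged replicate 2. This library also had the lowest sum of cardiomyocyte markers, 80189 normalized CPM against 102008 to 126078 in the other 7. The part of cell composition in these values was not tested.

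Around the members, 5 lists of 68 other genes were followed: further transporters and dehydrogenases, the fate of pyruvate, the route from methylglyoxal to D-lactate, receptors of metabolites and protons, and Gi signaling with lipolysis. Of these, 53 passed the filter and 0 were called by edgeR's quasi-likelihood test. An unadjusted p under 0.05 was found for 4 higher and 8 lower genes in the TK-/- tagged libraries, against 3.32% and 5.64% of all genes tested. Their median log2 fold change was 0.03, against −0.00 over all genes tested. The groups did not overlap for 2 of the 53, *Mpc2* and *Gnai2*, against 4.98% of all genes tested. DESeq2 and the likelihood ratio test likewise called 0 of the 53.

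All 20 genes of the pyruvate list were tested and 0 were called. At an unadjusted p under 0.05, 4 were higher and 0 lower, against 3.32% and 5.64% of all genes tested. The median log2 fold change was 0.09. The cardiomyocyte markers had a median of 0.18, with *Tnni3* and *Pln* at 0.36 and 0.32 (FDR = 0.551 and 0.541), and the part of cell composition in the values of the pyruvate genes was not tested. *Pdk4*, a kinase that switches off pyruvate dehydrogenase, was at 589, 615, 694 and 444 normalized CPM in control-tagged replicates 1 to 4 and at 607, 1579, 691 and 699 in TK-/- tagged replicates 1 to 4. Its log2 fold change of 0.61 (SE 0.28, FDR = 0.554) rested on TK-/- tagged replicate 2 and was 0.18 without it. *Pdp2*, a phosphatase that switches the complex back on, had a log2 fold change of 0.40 (SE 0.17, FDR = 0.522). *Mpc2*, a subunit of the mitochondrial pyruvate carrier, was at 220 ± 43.0 and 285 ± 43.5 normalized CPM (SD, n = 4 each), a log2 fold change of 0.38 (SE 0.16, FDR = 0.522). Its groups did not overlap, as those of 4.98% of all genes tested. Its partner *Mpc1* had a log2 fold change of −0.08 and *Me2*, a malic enzyme gene, one of −0.15, the lowest of the list. *Gpt2*, which makes alanine from pyruvate, was the fourth gene at an unadjusted p under 0.05, with a log2 fold change of 0.29 (SE 0.12, FDR = 0.508).

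Of the 11 further transporter and dehydrogenase genes, 4 were tested and 1 was lower at an unadjusted p under 0.05. *Slc16a12*, a creatine transporter gene, was at 1.42, 4.14, 2.02 and 3.598 normalized CPM in control-tagged replicates 1 to 4 and at 1.54, 1.42, 1.03 and 1.83 in TK-/- tagged replicates 1 to 4, with −0.93 as the log2 fold change (SE 0.35, FDR = 0.504, quasi-likelihood test of edgeR). The groups overlapped, since control-tagged replicate 1 was as low as the other group. *Emb*, the gene of the chaperone embigin, had a log2 fold change of −0.10, *Slc16a6* −0.28 and *Slc16a13* 0.12. The testis dehydrogenase gene *Ldhc* and the sodium-coupled transporter genes *Slc5a8* and *Slc5a12* had 0 reads. On the route to D-lactate, *Glo1*, *Hagh* and *Lactb2* had log2 fold changes of 0.05, 0.03 and 0.14.

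Of the 11 receptor genes other than *Hcar1* and *Hcar2*, 4 passed the filter. Among them, the genes of the proton-sensing receptors *Gpr65* and *Gpr4* had log2 fold changes of −0.63 and −0.27 and *Gpr132*, a receptor gene of the same family, −0.53, and 1, *Gpr65*, had an unadjusted p under 0.05 (FDR = 0.522). *Gpr65*, found on leukocytes, was at 2.60 ± 0.571 and 1.68 ± 0.423 normalized CPM (SD, n = 4 each), with overlapping groups. The macrophage, neutrophil and lymphocyte markers had median log2 fold changes of −0.31, 0.245 and 0.08. The part of cell composition in the values of the receptor genes was not tested. The succinate receptor gene *Sucnr1*, the fatty acid receptor genes *Ffar1* to *Ffar4*, *Oxgr1* and *Gpr84* had at most 5 reads in any library.

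Of 23 genes of Gi signaling and lipolysis, 22 were tested, with a median log2 fold change of −0.04. At an unadjusted p under 0.05, 6 were lower and 0 higher, against 5.64% and 3.32% of all genes tested. The endothelial, the pericyte and smooth muscle, and the macrophage markers had medians of −0.26, −0.26 and −0.31, and the cardiomyocyte markers 0.18. The part of cell composition in the values of the Gi and lipolysis genes was not tested. *Gnai2*, the Gi alpha subunit gene with the highest normalized CPM of the 3 listed, was at 417, 432, 605 and 411 normalized CPM in control-tagged replicates 1 to 4 and at 365, 326, 355 and 377 in TK-/- tagged replicates 1 to 4. The groups did not overlap, as those of 4.98% of all genes tested, and the log2 fold change was −0.39 (SE 0.13, FDR = 0.468). The beta-arrestin genes *Arrb1* and *Arrb2*, the phosphodiesterase gene *Pde4b* and the adenylyl cyclase gene *Adcy9* were also among the 6, with log2 fold changes from −0.29 to −0.46 and FDRs of 0.492 to 0.553. The lipase genes *Pnpla2*, *Lipe* and *Mgll* lay between −0.05 and 0.15, and the highest of the list were *Adrb1* at 0.20 and *Prkaca* at 0.19. *Adrb3*, the receptor gene of fat, did not pass the filter.

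**Figure D5:**
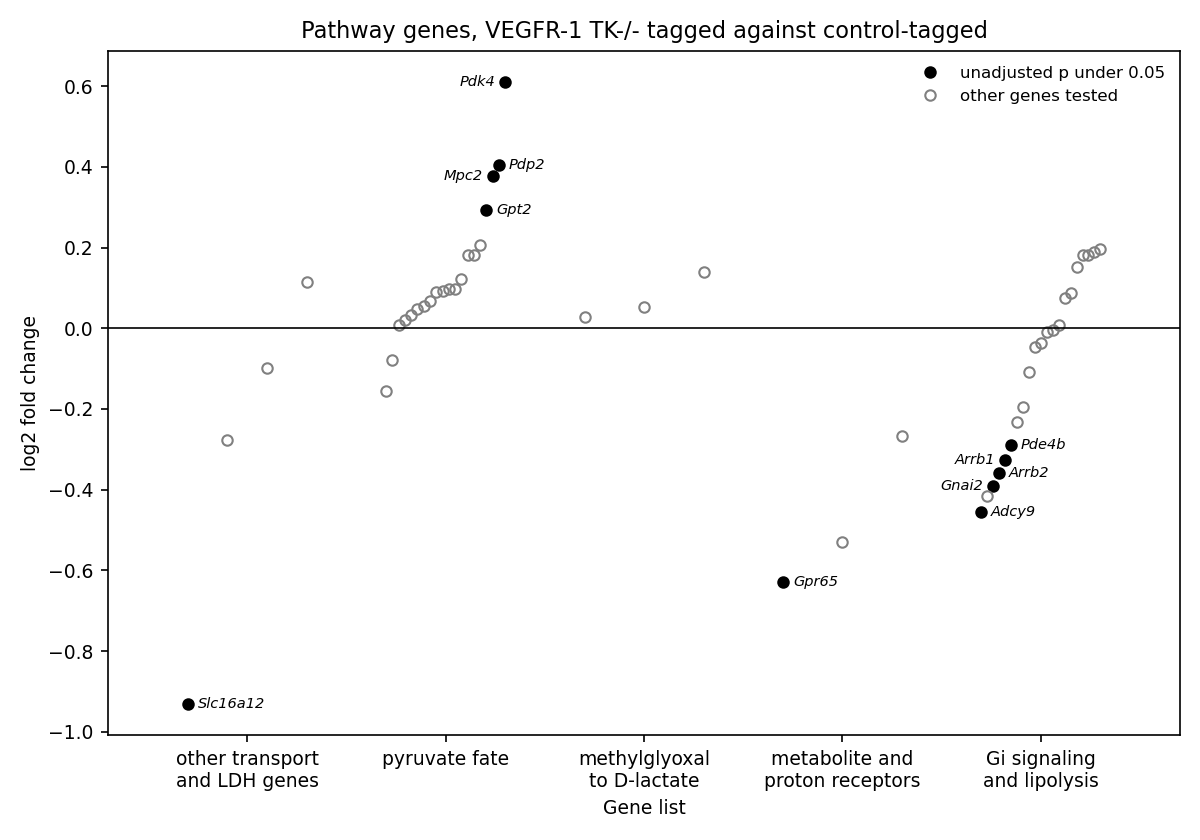
Log2 fold change of TK-/- tagged against control-tagged libraries (y axis) of the tested genes of the 5 lists reported here (x axis), without Hcar1 and Ldhd. Filled and named points have an unadjusted p under 0.05, open points do not, and no gene was called. The 4 filled points above 0 are in the pyruvate list and 5 of the 7 below 0 in the list of Gi signaling and lipolysis.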

How the data were processed

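Per the labels and the study, the authors used Trim Galore 0.4.4 (Phred cutoff 30) on paired-end reads, STAR 2.5.4b on GRCm38 with up to 10 alignments per read and a mismatch share of 0.04, and featureCounts on GENCODE M16. They deposited whole-number counts per gene for 8 libraries, not normalized. The labels describe depletion of ribosomal RNA and the study describes poly-A selection. All columns were used.

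Genes reaching a CPM of 1 in 2 or more libraries (13542 of 46040) were normalized by TMM and tested with the quasi-likelihood test of edgeR 4.0.16 in R 4.3.3 (all 8 libraries, no covariates). P-values were adjusted over all these genes by the method of Benjamini and Hochberg (FDR). Log2 normalized CPM used a prior count of 2. Lengths and positions came from GENCODE M21, in which 849 identifiers are missing. Intervals of single counts are exact Poisson intervals. The test was checked on simulated counts with the same relative spread for every gene, a setting that these libraries need not share. As alternatives served DESeq2 1.42.0, the likelihood ratio test of edgeR, RLE factors, total counts, no filter, filterByExpr, each library left out, a replicate block, other exon lengths and other measures of likeness.

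The members and lists were chosen with earlier results of these data known. Named genes are the members, *Flt1*, the 2 highest and 2 lowest log2 fold changes of each list and its called genes. The adipocyte markers, the genes most and least like *Hcar1* and genes sharing exon bases with a member are also named. Pathway genes with an unadjusted p under 0.05, untested genes of the lists, single genes of the lists described by role and genes near *Hcar1* were named after their values were seen. Some genes of the lists enter the counts and medians and are not reported here by name or in the plot of the lists.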

Additional observations from a re-analysis of the deposited data

Results flagged for a closer look

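Dixon's test, applied to each group of 4 libraries for 8 members and 2 shares, 20 groups in all, marked 3 libraries as far from the others of their group, and chance marks about 1 in 20 groups. For *Hcar1* it was TK-/- tagged replicate 2, at 1.42 normalized CPM against 0.158 to 0.325 in the other 3 libraries, and since *Hcar1* was chosen by its values in these libraries this is a description only. For *Ldha* it was control-tagged replicate 3, at 1214 normalized CPM against 861 to 920. For *Slc16a7* it was TK-/- tagged replicate 1, at 3.25 normalized CPM against 2.13 to 2.23, a difference between 40 reads and 24 to 28 reads.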

How the results depend on the processing

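The number of genes called between the groups, 1 by the quasi-likelihood test, was 53 by the likelihood ratio test, 32 by DESeq2, 23 with no filter on low counts and 1 to 3 with one library left out. None of the 7 members tested other than *Hcar1* was called under any of the 15 alternatives. The log2 fold change of *Hcar1* ranged from −3.18 to −1.79. Small log2 fold changes changed sign when one library was left out, within −0.14 to 0.0326 for *Ldha*, −0.0807 to 0.22 for *Ldhb*, −0.10 to 0.0356 for *Slc16a1*, −0.0250 to 0.35 for *Slc16a3*, −0.18 to 0.12 for *Slc16a7* and −0.12 to 0.15 for *Bsg*. The 12 pathway genes with an unadjusted p under 0.05 became 5 without TK-/- tagged replicate 2 and 7 without control-tagged replicate 2, in a range of 5 to 11 with one library left out. The mean share of *Ldha* was 26.2% with the longest transcript and 18.4% to 19.4% with one library left out. Of the 10 genes most like *Hcar1*, 4 were among the 10 highest by Spearman's rho and 2 after subtraction of group means. Same-numbered libraries deviated together with correlations of −0.055 to 0.343 and 2 of 8 libraries correlated best with their own number. So few libraries cannot decide whether the numbers pair the samples. With the replicate number as a block, 1 gene was called and *Bsg* was at a log2 fold change of 0.0144, where it was −0.00 without the block. Genes with few reads, such as *Hcar1*, *Hcar2*, *Slc16a3* and *Slc16a7*, are limited by depth. Scaling by RLE factors or total counts moved the median of all genes by less than 0.1 and changed no sign of a member. The cause of these changes was not tested.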
